A study of Mus musculus with 23 samples.

Results

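The comparison described here is the difference between 2 responses to bacterial lipopolysaccharide (LPS) in mouse cortex, 1 in mice with prior doxycycline (dox) and 1 in mice without. For each gene it was (Dox+LPS minus Dox) minus (LPS minus Untreated) on the log2 scale. A positive value is a response that lies higher in the dox-treated mice, and a negative value one that lies lower. All 23 mice of the series entered it by their treatment label, and all 770 genes of the nCounter Mouse Neuroinflammation panel were tested (757 endogenous and 13 housekeeping genes). A size is given only for the 621 genes that exceeded the background of the negative control probes in at least 50% of the mice of each group.

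The 4 groups were 6 Dox+LPS, 4 Dox, 5 LPS and 8 Untreated mice. All were wild-type (WT) B6FVB offspring of the CamKIIα-TTA/tetO-APP102 x FVB breeding and were 12 wk old. Dox+LPS and Dox mice ate chow with dox at 100 mg/kg between postnatal day 3 and 6 wk of age and then had 6 wk of washout, so that no mouse was on the drug at harvest. Dox+LPS and LPS mice received LPS i.p. at 2 mg/kg and were harvested 18 h later. Dox and Untreated mice received saline, according to the methods. The study asked through this design whether an antibiotic regimen commonly used to silence transgenes changes a later neuroinflammatory response.

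LPS is a component of the outer membrane of Gram-negative bacteria. It is sensed by Tlr4 with the co-receptor Cd14, and signalling through Myd88 activates NF-kB, while a second branch induces interferons and with them the antiviral effector genes. In the brain a peripheral injection is known to raise cytokine receptors, acute-phase proteins and reactive astrocyte genes, and to lower the genes that mark resting microglia. Since the samples were bulk cortex, fewer cells of a type and less RNA per cell cannot be told apart in any value below.

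The panel counted 645971 to 804471 molecules of the 770 genes per mouse, with 609 to 694 genes above background. Markers of neurons, astrocytes, microglia, oligodendrocytes and endothelium were all above background in every mouse, whereas 0 of 7 T and NK cell markers and 0 of 3 B cell markers had a size. LPS was fully confounded with the cartridge (Dox+LPS and LPS mice on one, Dox and Untreated mice on the other), and a factor common to both dox conditions drops out of the difference. Dox-treated mice lay in later lanes of each cartridge, and lane was fitted as a covariate in 1 alternative. Males made up 3 of 6 Dox+LPS, 1 of 4 Dox, 3 of 5 LPS and 6 of 8 Untreated mice. Untreated mouse 3, LPS mouse 3 and Dox+LPS mouse 1 stood apart from their groups in several genes. These mice are all male. Every value with females alone below therefore also leaves them out, and every value with males alone keeps them. Sex and these mice cannot be told apart in such values. For the named genes and families described, the value without a mouse is given where leaving it out moved the value by over 1.5 times.

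No gene passed the test. With edgeR's quasi-likelihood test, 0 of 770 genes (0%) had an adjusted p under 0.05 with a difference above 0.5, and 0 had an adjusted p under 0.1. The smallest adjusted p was 0.149. At an unadjusted p under 0.05 there were 69 genes (8.96%), 27 with a positive and 42 with a negative difference. This split depended on the scaling, with 52 positive and 12 negative under housekeeping scaling, 42 and 20 under library size, 35 and 23 under RLE, and 34 and 28 under TMM. The likelihood ratio test, DESeq2 and limma-voom also called 0 genes, with 53, 53 and 65 genes at an unadjusted p under 0.05. With lane as a covariate there were 71 such genes and with sex as a covariate 64, and 0 were called.

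The responses themselves lay close to the line of equality. Across the 621 genes the 2 responses had a Pearson correlation of 0.97, which is a description, since genes are not independent replicates. The median difference was -0.01, and the middle 90% of the differences lay between -0.24 and 0.39.

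**Figure D1:**
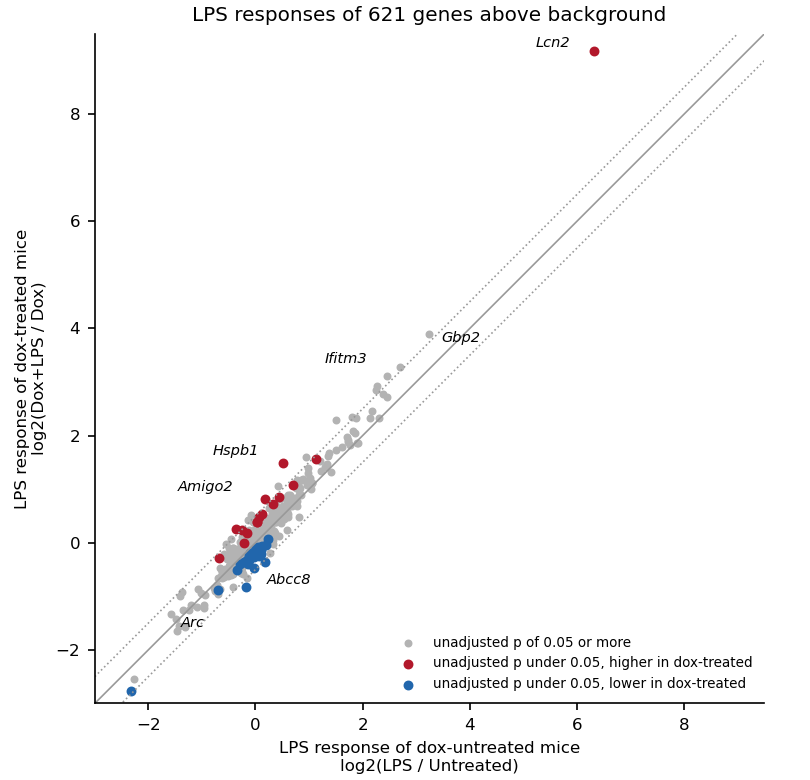
LPS response of dox-treated mice, log2(Dox+LPS / Dox), on the vertical axis against that of dox-untreated mice, log2(LPS / Untreated), on the horizontal axis, with 1 point for each of 621 genes, the line of equality (solid) and a difference of 0.5 either way (dotted). Red and blue points are the 16 and 39 genes at an unadjusted p under 0.05 with a positive or a negative difference, and Lcn2 stands far above the line at 9.18 and 6.31.

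A p that misses a threshold does not show that the responses were alike, so the intervals are the informative values. The 95% interval of the difference lay wholly between -0.5 and 0.5 for 414 of the 621 genes (66.7%), and wholly between -1 and 1 for 593 (95.5%). The median standard error was 0.13. For the other 28 genes a difference of 1 or more in at least one direction remained inside the interval. These 28 include Lcn2, the interferon-induced genes Gbp2 and Irf7, and the activity-dependent genes Arc and Fos.

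Genes with a positive difference are taken first, and the 20 genes named by the smallest unadjusted p are described in both directions. In this direction 16 of 621 genes (2.58%) had an unadjusted p under 0.05. Where groups are said to overlap or not, this describes genes chosen by their p. The share of all 621 genes whose groups separate was not counted.

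Hspb1, a small heat shock protein that reactive astrocytes and endothelium make under stress, had the smallest p among them. Its normalised count in Dox+LPS mice had a lowest value of 330.4, a median of 371.9 and a highest of 402.1, and was 146, 132, 130 and 115 in Dox mice. In LPS mice it was 260.0, 347, 202, 329 and 226, and in Untreated mice it had a lowest value of 119, a median of 160.5 and a highest of 304. Dox+LPS and Dox mice did not overlap, while LPS and Untreated mice did. The response was 1.49 with prior dox and 0.52 without it, a difference of 0.96 ± 0.27 (SE; 95% interval 0.41 to 1.52; adjusted p = 0.157 by edgeR's quasi-likelihood test). It was 0.90 without LPS mouse 3 and Untreated mouse 3. Females alone gave 0.47, and males alone, where 1 mouse stands for Dox, gave 1.34. Whether the sexes differ was not tested for any gene.

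Amigo2, an adhesion protein counted among the A1 reactive astrocyte genes, followed. Dox+LPS mice had 268 at the lowest, 293 at the median and 345 at the highest, and Dox mice had 192, 148, 153 and 199. LPS mice had 202, 256, 180, 216 and 244, and Untreated mice had 142 at the lowest, 188 at the median and 242 at the highest. Every Dox+LPS mouse lay above every LPS mouse and every Dox mouse, whereas LPS and Untreated mice overlapped. The response was 0.81 with prior dox and 0.19 without it, a difference of 0.62 ± 0.18 (SE; adjusted p = 0.157). The difference was 0.31 with females alone and 0.62 with males alone.

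Lcn2 encodes lipocalin 2, an iron-scavenging acute-phase protein, and had the highest LPS response of all 621 genes. It was counted at 17611, 9968, 10013, 14610, 15073 and 11573 in Dox+LPS mice, and at 30.5, 19.2, 11.3 and 29.8 in Dox mice. LPS mice had 11439, 11725, 5449, 10667 and 11938, and Untreated mice had 13.6 at the lowest, 25.3 at the median and 733 at the highest. LPS mouse 3 was the lowest of its group and Untreated mouse 3 the highest of its own, while both LPS groups stayed above their controls in every mouse. Lcn2 exceeded background in 2 of 4 Dox mice and 4 of 8 Untreated mice, so its starting level is close to the detection limit. The difference was 2.86 ± 1.17 (SE; 95% interval 0.44 to 5.29; adjusted p = 0.509), 1.17 without Untreated mouse 3, and 1.01 without both mice. Among females alone it was -0.49.

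Gadd45g, a stress-induced growth arrest gene, had opposite point estimates in the 2 conditions. Its response was 0.25 in dox-treated mice, where counts were 132 to 204 in Dox+LPS and 103 to 166 in Dox mice. It was -0.37 in dox-untreated mice, where counts were 87.0 to 138 in LPS and 87.4 to 196 in Untreated mice. All 4 groups overlapped, and the difference of 0.62 ± 0.25 (SE) had an adjusted p of 0.504. That difference was 0.64 with females alone and 0.48 with males alone.

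Myrf, the transcription factor that switches on myelin genes, and Tm4sf1, a tetraspanin-like membrane protein of endothelium, had differences of 0.33 ± 0.11 and 0.48 ± 0.21 (SE; adjusted p of 0.364 and 0.516). Dox+LPS mouse 1 was highest for both genes, at 1047 for Myrf and 571 for Tm4sf1. Without that mouse the differences were 0.23 for Myrf and 0.26 for Tm4sf1.

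Tnfrsf1a, the main receptor for TNF, had a response of 1.57 with prior dox and 1.12 without it, with counts of 290 to 481 in Dox+LPS, 114 to 134 in Dox, 206 to 349.5 in LPS and 119 to 187 in Untreated mice. Both LPS groups lay above their controls with no overlap. The difference was 0.45 ± 0.19 (SE), and 0.26 without LPS mouse 3 and Untreated mouse 3. With females alone it was 0.11, and with males alone 0.70. Mmp14, a membrane-bound matrix metalloproteinase, differed by 0.42 ± 0.18. Pld1, a phospholipase D, and Gdpd2, an astrocyte phosphodiesterase, differed by 0.35 ± 0.15 and 0.40 ± 0.17 (SE). Gdpd2 was lowered on both sides, by point estimates of -0.29 with prior dox and -0.69 without it. Its difference was 0.70 with females alone and 0.13 with males alone. All 4 genes had an adjusted p of 0.516.

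**Figure D2:**
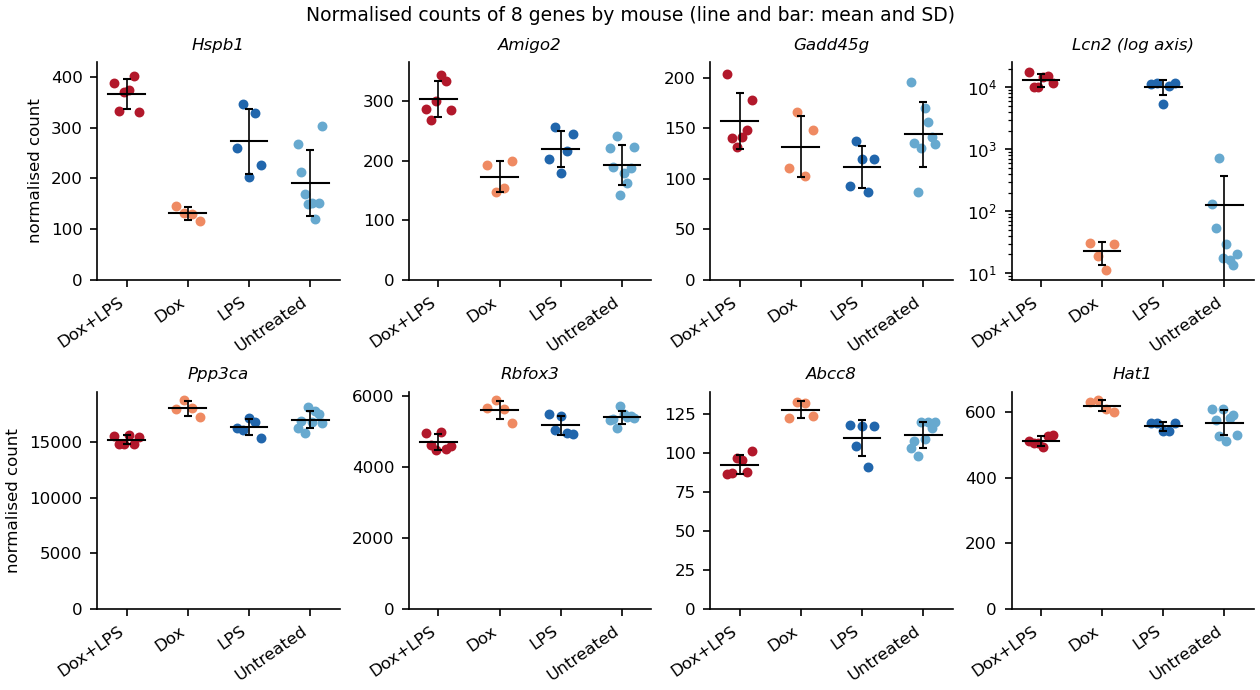
Normalised counts of 8 genes on the vertical axes (logarithmic for Lcn2), with 1 point for each mouse and the mean and SD of each group, in Dox+LPS, Dox, LPS and Untreated mice. In the upper row Hspb1 and Amigo2 are highest in Dox+LPS mice, and Lcn2 has an Untreated mouse at 733. In the lower row Ppp3ca, Rbfox3, Abcc8 and Hat1 have their highest mean in Dox mice and their lowest in Dox+LPS mice.

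In the other direction 39 of 621 genes (6.28%) had an unadjusted p under 0.05. Their median difference was -0.19, and 37 of the 39 lay closer to 0 than -0.5, the other 2 being Cd6 (-0.66) and Cidea (-0.55), which were picked out after their values were seen.

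Several of the 10 named genes are neuronal. Ppp3ca, the catalytic subunit of the neuronal phosphatase calcineurin, had 14854 at the lowest, 15176 at the median and 15661 at the highest in Dox+LPS mice, and 18004, 18783, 18075 and 17235 in Dox mice. It had 16256, 16087, 17171, 16826 and 15335 in LPS mice, and 15839 at the lowest, 16858 at the median and 18138 at the highest in Untreated mice. The dox-treated pair of groups was separated and the dox-untreated pair overlapped. The response was -0.24 with prior dox and -0.06 without it, a difference of -0.19 ± 0.05 (SE; 95% interval -0.29 to -0.09; adjusted p = 0.149).

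Rbfox3, the neuronal nuclear antigen NeuN, had 4476 to 4990 in Dox+LPS mice and 5233 to 5867 in Dox mice, against 4917 to 5487 in LPS mice and 5095 to 5706 in Untreated mice. Its difference was -0.19 ± 0.06 (SE; adjusted p = 0.157). Grm2, a presynaptic metabotropic glutamate receptor, differed by -0.31 ± 0.10 (SE; adjusted p = 0.253), with Dox+LPS mouse 1 lowest at 594, and by -0.26 without that mouse. Mef2c, a transcription factor of excitatory neurons and microglia, differed by -0.24 ± 0.07 (SE; adjusted p = 0.157).

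Abcc8, the sulfonylurea receptor of potassium channels, had 86.2, 86.9, 96.4, 95.4, 87.3 and 100.8 in Dox+LPS mice, and 122, 132, 132 and 124 in Dox mice. It had 117, 104.5, 117, 90.8 and 117 in LPS mice, and 98.1 at the lowest, 112 at the median and 119.7 at the highest in Untreated mice. Dox mice lay above all Untreated mice and Dox+LPS mice lay below all Dox mice, so that the response was -0.47 with prior dox and -0.03 without it. The difference of -0.44 ± 0.12 (SE) had an adjusted p of 0.149.

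Tpd52, a protein of vesicle traffic, and Hat1, a histone acetyltransferase, gave the same adjusted p of 0.149 with differences of -0.20 ± 0.05 and -0.25 ± 0.07 (SE). Tpd52 had 1903 at the lowest, 1996 at the median and 2029 at the highest in Dox+LPS mice and 2304, 2416, 2377 and 2352 in Dox mice, against 2122, 2165, 2218, 2101 and 2090 in LPS mice and 2125, 2184 and 2477 at the lowest, median and highest in Untreated mice. Hat1 had a median of 509.0 and at most 531.2 in Dox+LPS and 601.2 to 635.5 in Dox mice, against 540.8 to 568.1 in LPS and 513 to 610.5 in Untreated mice. In both genes, which were chosen by their small p, every Dox+LPS mouse was below every Dox and every LPS mouse. Tpd52 reached an adjusted p of 0.0175 by edgeR's quasi-likelihood test when Untreated mouse 4 was left out, at a difference of -0.22, the one gene and setting with an adjusted p under 0.05. Atp6v1a, a subunit of the vacuolar proton pump, and the mitophagy receptors Bnip3l and Bnip3 had differences of -0.15 ± 0.05, -0.19 ± 0.06 and -0.17 ± 0.06 (SE). Bnip3 is the one of these whose response was positive on both sides, at 0.07 with prior dox and 0.24 without it.

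**Figure D3:**
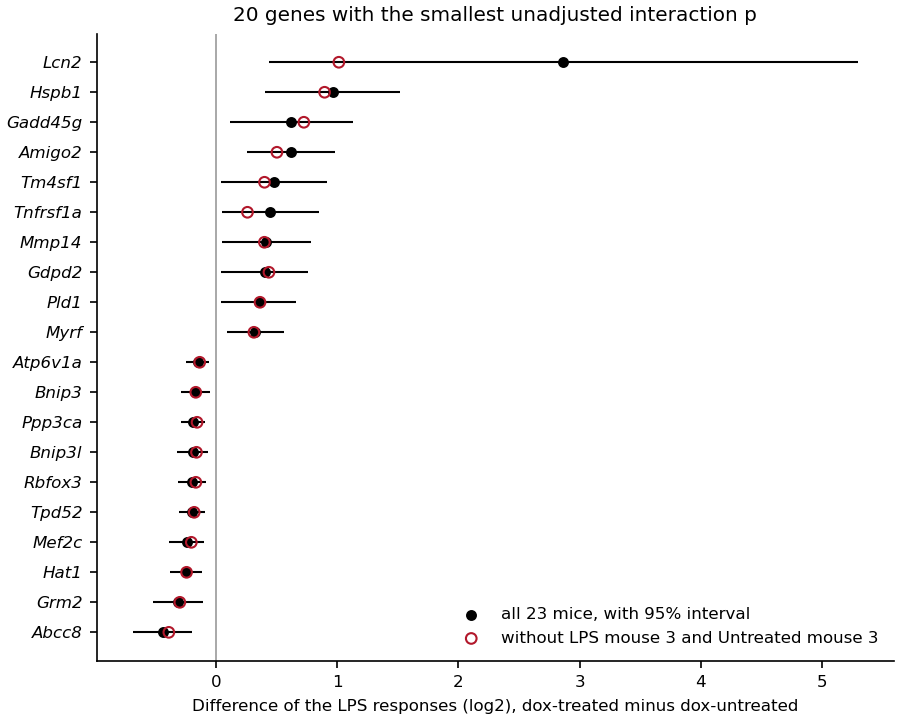
Difference of the LPS responses (log2, dox-treated minus dox-untreated) on the horizontal axis for the 10 genes with the smallest unadjusted p in each direction, with the 95% interval (line) over all 23 mice and the value without LPS mouse 3 and Untreated mouse 3 (open circle). The positive differences range up to 2.86 for Lcn2 with wide intervals, and the negative ones lie between -0.44 and -0.15 with narrow intervals. The intervals do not include the effect of the choice of scaling. Lcn2 is the point that moves most, to 1.01.

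How the difference varied with the size of the LPS response is shown by splitting the 621 genes at a mean response of 0.5. Of the 91 genes that LPS raised, 79 had a positive difference (86.8%), against 281 of all 621 (45.2%). Their median difference was 0.18, with a median response of 1.11 with prior dox and 0.85 without it. Taken singly, 6 of the 91 had an unadjusted p under 0.05 with a positive difference and 0 with a negative one. The median of the 91 was 0.19 for Dox+LPS over LPS mice, and -0.02 for Dox over Untreated mice. Both are log2 ratios of group means of normalised counts and not fitted values. Of the 42 genes that LPS lowered, 15 had a positive difference, with a median of -0.06 (0.01 with housekeeping scaling). Among females alone 33 of the 42 were positive with a median of 0.14, and among males alone 7 of the 42 with a median of -0.17. Housekeeping scaling moved the median of all 621 genes to 0.05, with 418 positive, and that of the raised genes to 0.24, with 86 positive.

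This shift rested in part on 2 mice. For each mouse the median log2 ratio over the 91 genes to the mice without LPS of the same dox history was taken. Dox+LPS mice lay at 1.18, 0.98, 0.95, 1.12, 1.15 and 1.10, and Dox mice between -0.05 and 0.05. LPS mice lay at 0.90, 1.11, 0.60, 0.91 and 0.95, and Untreated mice between -0.09 and 0.05 save for Untreated mouse 3 at 0.33. The Dox+LPS and LPS ranges overlapped. LPS mouse 3 had the weakest induction of the 11 injected mice, and Untreated mouse 3 the highest value of the 12 mice without LPS. Without LPS mouse 3 alone 68 of the 91 genes had a positive difference with a median of 0.12, and without both mice 59 with a median of 0.09. Other omissions moved the values the other way. Without LPS mouse 2, the highest LPS mouse at 1.11, 85 of the 91 were positive with a median of 0.26. Without 3 Untreated mice of another number range it was 82 with a median of 0.23. Among females alone it was 54 of 91 and a median of 0.06, and among males alone, where 1 mouse stands for Dox, 71 of 91 and 0.26; whether the sexes differ was not tested.

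**Figure D4:**
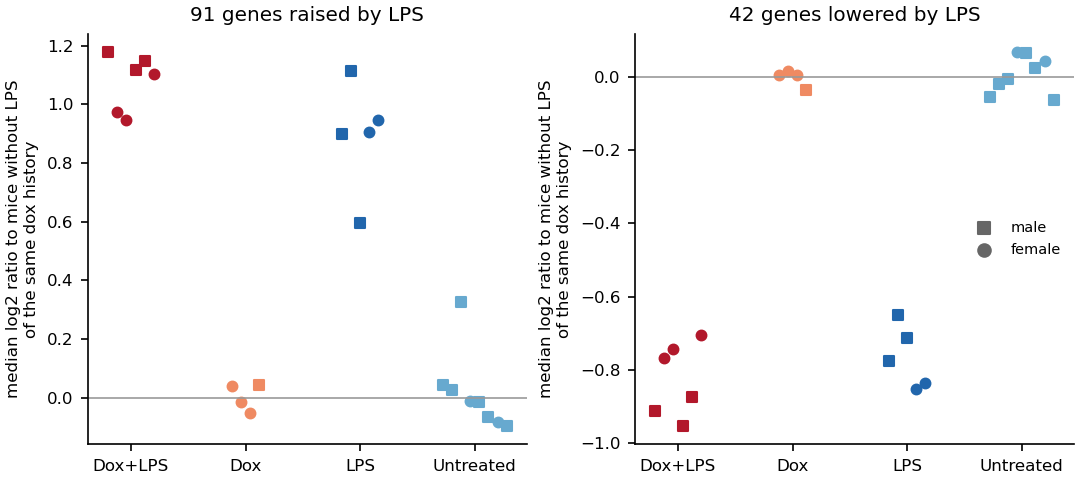
Median log2 ratio of each mouse to the mice without LPS of the same dox history, over 91 genes raised by LPS (left) and 42 genes lowered by LPS (right), in Dox+LPS, Dox, LPS and Untreated mice, with squares for males and circles for females. In the left panel Dox+LPS mice sit between 0.95 and 1.18, 1 LPS mouse sits at 0.60 and 1 Untreated mouse at 0.33.

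The 5 genes with the highest mean response show the same pattern of values. Besides Lcn2 these were Gbp2, Ifitm3, Zbp1 and Irf7, all induced by interferon: Gbp2 is a guanylate-binding GTPase, Ifitm3 blocks virus entry, Zbp1 senses Z-form nucleic acids, and Irf7 is the transcription factor that amplifies the interferon response. Gbp2 was counted at 771, 415, 520.4, 731, 629 and 638 in Dox+LPS mice and at 36.2 to 47.5 in Dox mice. It was counted at 463, 654, 52.3, 421.5 and 433 in LPS mice and at 32.9 to 65.1 in Untreated mice, so LPS mouse 3 lay among the Untreated mice. The difference was 0.67 ± 0.53 (SE), 0.38 without LPS mouse 3, and 0.27 without that mouse and Untreated mouse 3. For Ifitm3, Zbp1 and Irf7 the differences were 0.58 ± 0.29, 0.66 ± 0.34 and 0.66 ± 0.35 (SE), and 0.23, 0.40 and 0.26 without the 2 mice. Zbp1 was counted at 12.8 to 26.8 in Dox and 13.0 to 29.4 in Untreated mice. Background limits in these groups were 16.1 to 24.2 and 15.4 to 22.7 counts before scaling. The starting level of Zbp1 is therefore close to the detection limit. Irf7 was at 0.42 without Untreated mouse 3 alone. The adjusted p of these 4 genes ran from 0.539 to 0.716.

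Interferon-activated factors bind the interferon-stimulated response element of promoters. The core searched here was GAAANNGAAA on either strand, in the 250 bases before each RefSeq start (build GRCm38.p6). It was found in 936 of 27025 genes (3.46%) and in 25 of the 494 of 621 genes that matched a promoter (5.06%). Among the raised genes 73 of 91 matched and 10 held it (13.7%), beside 4 of the 35 of 42 lowered genes that matched (11.4%). These 10 genes had a median difference of 0.22, and the 63 raised genes without it a median of 0.18. The match is a description of these letters and not of binding. Stretches of 30 bases are shown for 4 raised genes of the sensing and interferon lists, on the strand of the gene with the core in capitals, to show where the core lies in genes whose difference was positive and did not pass the test (0.67 for Gbp2 and Rsad2, 0.20 for Ifitm2, 0.37 for Myd88). Without the 2 mice Rsad2 was at 0.40 and Ifitm2 at 0.02. The other raised genes with the core, not shown, were Tnfrsf1b (0.39), Ncf1 (0.25), Srgn (0.15), H2-T23 (0.15), Ctss (0.11) and Spp1 (-0.05).
Gbp2 (chr3:142620594-142620623, + strand, core 59 to 50 bases before the start): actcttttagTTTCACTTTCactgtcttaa
Rsad2 (chr12:26456553-26456582, - strand, core 120 to 111 bases before the start): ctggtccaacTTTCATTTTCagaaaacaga
Ifitm2 (chr7:140955988-140956017, - strand, core 46 to 37 bases before the start): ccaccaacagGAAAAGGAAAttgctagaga
Myd88 (chr9:119340039-119340068, - strand, core 40 to 31 bases before the start): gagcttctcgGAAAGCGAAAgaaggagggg

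Gene families are described by their counts and medians, beside 281 of 621 positive differences and a median of -0.01 over all genes above background. Of 43 families, 37 had at least 3 such genes. Among these, 21 medians were above 0 and 16 below, and 5 were further than 0.2 from 0, all positive. Without LPS mouse 3 and Untreated mouse 3, 2 were further than 0.2 from 0. These were the A1 reactive astrocyte genes outside interferon and complement (0.26) and the TNF superfamily (0.24). Only the A1 genes were among the 5 above, since the TNF superfamily had a median of 0.16 with all mice.

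Sensing came first in the pathway. In the family of Cd14, Toll-like receptors and adaptors 8 of 9 genes had a positive difference, with a median of 0.13. That median was 0.06 without Dox mouse 4, and 0.20 or 0.21 without Dox mouse 3, LPS mouse 1 or LPS mouse 2. Myd88, the adaptor shared by most Toll-like receptors, had an unadjusted p under 0.05, with a response of 1.08 with prior dox and 0.71 without it (difference 0.37 ± 0.16, SE; adjusted p = 0.516). Tlr4, the LPS receptor itself, had 0.52 and 0.44. With females alone the difference of Myd88 was 0.08, and with males alone 0.91. Among NF-kB subunits, inhibitors and kinases 9 of 10 differences were positive with a median of 0.15, 0 at an unadjusted p under 0.05, and the median was 0.09 without LPS mouse 3 and 0.07 without LPS mouse 4. Among nucleic acid sensors 6 of 6 were positive with a median of 0.28, and 0.17 without the 2 mice.

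Casp4, the mouse caspase that binds LPS inside the cell, has no size because it was above background in 0 of 4 Dox and 1 of 8 Untreated mice. Its unadjusted p of 0.00025 was the smallest of the panel (adjusted p = 0.149 by edgeR's quasi-likelihood test). That p draws on Dox and Untreated counts mostly below the background limit, with normalised medians of 7.12 and 14.7. Normalised counts were 86.2, 73.6, 52.1, 60.6, 70.7 and 54.3 in Dox+LPS mice and 5.33 to 10.3 in Dox mice, against 51.4, 46.5, 36.6, 46.8 and 54.5 in LPS mice and 8.03 to 24.3 in Untreated mice. Dox+LPS and LPS mice overlapped between 52.1 and 54.5. The interferon-induced chemokines Cxcl9 and Cxcl10 were also above background in 0 of 4 Dox and 1 of 8 Untreated mice. Cxcl9 was counted at 38.1 to 76.5 in Dox+LPS mice and at most 13.6 in Dox mice, against 15.7 to 35.1 in LPS mice and 9.56 to 18.6 in Untreated mice. Cxcl10 was counted at 98.5 to 355 in Dox+LPS mice and at no more than 13.4 in Dox mice, against at most 97.5 in LPS mice and at most 26.2 in Untreated mice. For both chemokines, which were picked after their values were seen, every Dox+LPS mouse lay above every LPS mouse. For Cxcl10 the ranges nearly met, with the lowest Dox+LPS mouse at 98.5 and the highest LPS mouse at 97.5. Whether this order holds under other scalings was not tested, and the share of panel genes that separate in this way was not counted. It is a comparison of injected mice only and not the difference of the responses.

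Antiviral interferon effectors had a positive difference in 9 of 12 genes, with a median of 0.31 and 0 genes at an unadjusted p under 0.05. Among the interferon regulatory factors, Irf1 had a difference of 0.42 (0.27 without the 2 mice), and Irf3 and Irf2 had -0.01 and -0.07. The family median was 0.16 without LPS mouse 3 and Untreated mouse 3, and 0.07 among females alone.

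Acute-phase and reactive glia genes gave the largest family median, 0.40, with a positive difference in 9 of 9 genes. Hspb1 and Lcn2 had an unadjusted p under 0.05. Lrg1, an acute-phase glycoprotein, and Osmr, the receptor for oncostatin M, had differences of 0.78 and 0.55 with unadjusted p of 0.052 and 0.057. Serpina3n, a serine protease inhibitor widely used as a marker of reactive astrocytes, had a response of 2.47 with prior dox and 2.18 without it, and Vim, an intermediate filament, had 0.73 and 0.61. Without the 2 mice the differences of Serpina3n and Vim were 0.10 and -0.07, and those of Lrg1 and Osmr 0.55 and 0.36. The family median was 0.14 without the 2 mice and -0.04 among females alone, and it was 0.25 without LPS mouse 3 alone.

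The A1 reactive astrocyte genes outside the interferon and complement families (4 of 4 positive, median 0.28) and the A2 genes (6 of 7 positive, median 0.25) had medians of 0.26 and 0.19 without the 2 mice. The A1 median was 0.05 among females alone and 0.52 among males alone. The A2 median was 0.16 without LPS mouse 3, 0.16 without Dox mouse 1 and 0.41 without Dox mouse 4. TNF superfamily ligands and receptors had 9 of 11 positive differences and a median of 0.16, which was 0.24 without LPS mouse 3 and Untreated mouse 3, 0.25 without Untreated mouse 7, 0.29 without Dox mouse 2 or LPS mouse 2, and 0.33 without Dox mouse 3. Tnfrsf1a and Tnfrsf1b, the 2 TNF receptors, had an unadjusted p under 0.05, with differences of 0.45 and 0.39. Complement components had a positive difference in 5 of 5 genes at a median of 0.05, and a median of -0.08 without the 2 mice. With each mouse left out in turn that median ran from -0.01 to 0.14. C4a, whose counts may include its near-identical copy C4b, had the family's smallest p, with a difference of 0.27 ± 0.25 (SE), 0.41 without Dox+LPS mouse 1, 0.16 without LPS mouse 3 or Untreated mouse 3, and 0.05 without both of these.

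**Figure D5:**
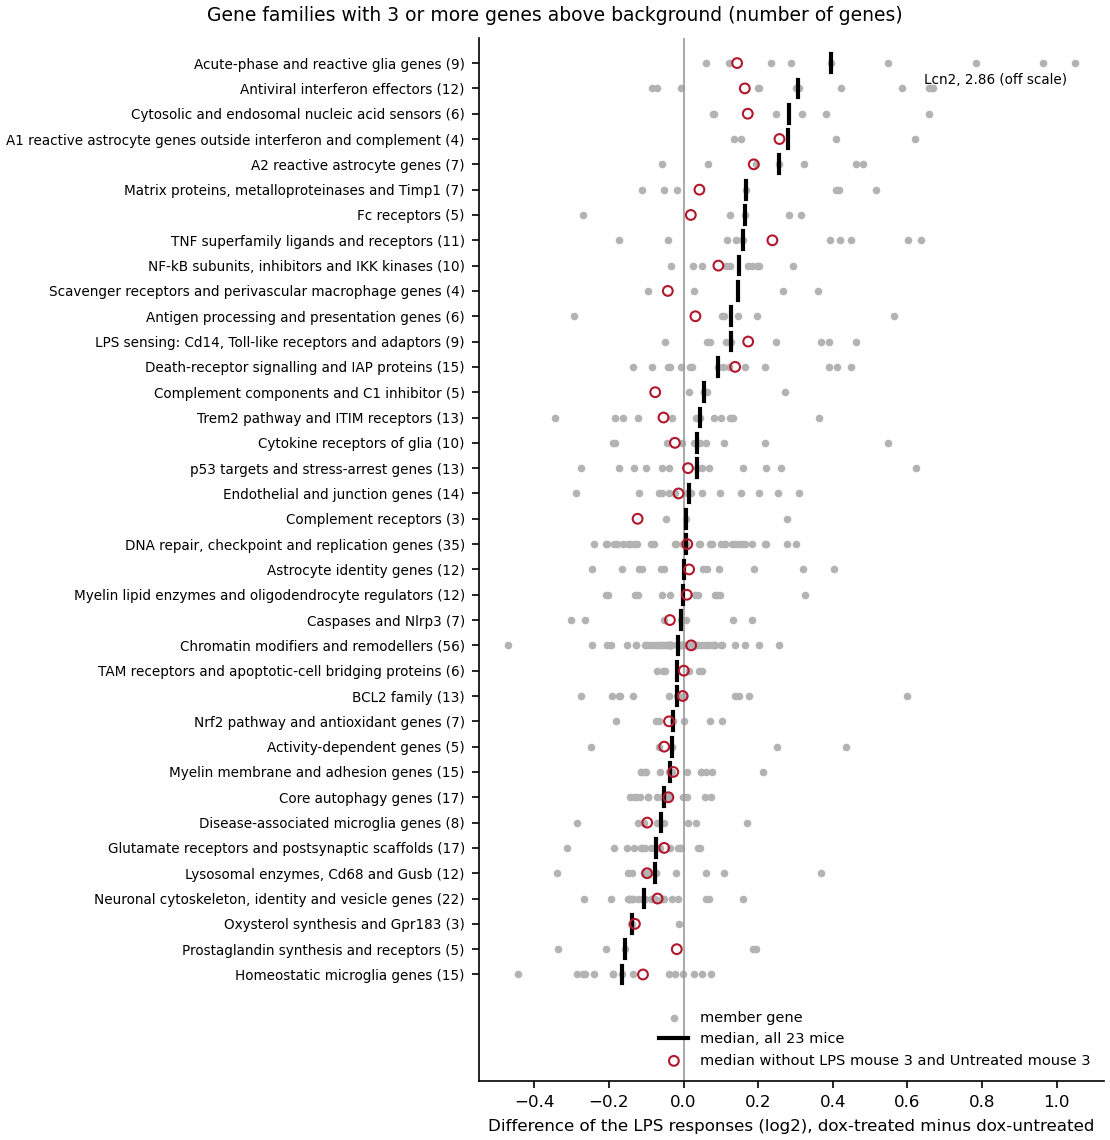
Difference of the LPS responses (log2, dox-treated minus dox-untreated) on the horizontal axis for the genes above background of 37 families (number of genes in brackets), with each gene as a grey point (Lcn2, at 2.86, is off the scale), the family median as a black bar, and the median without LPS mouse 3 and Untreated mouse 3 as an open circle. The medians run between -0.16 for homeostatic microglia genes and 0.40 for acute-phase and reactive glia genes, and the open circle of the acute-phase family lies at 0.14.

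Homeostatic microglia genes had the lowest median of the 37 families, -0.16, with a positive difference in 3 of 15 genes. Gpr34 and P2ry12, receptors by which resting microglia sense lysophospholipid and nucleotides, were 2 of the 5 genes that LPS lowered most. Gpr34 was counted at 37.4 to 60.5 in Dox+LPS mice and 316 to 345 in Dox mice, and at 41.3 to 95.9 in LPS mice and 284 to 392.5 in Untreated mice, with no overlap in either pair. Its response was -2.77 with prior dox and -2.32 without it, a difference of -0.44 ± 0.21 (SE; adjusted p = 0.539), and -0.26 without LPS mouse 2. P2ry12 had responses of -2.54 and -2.26, a difference of -0.29 ± 0.18 (SE), -0.14 without LPS mouse 3 and -0.12 without that mouse and Untreated mouse 3. Among other members of the same family, Sall1 and Fcrls had differences of -0.26 and -0.27, and Tmem119 and Csf1r had -0.04 and 0.03.

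Dox+LPS mouse 1 was the lowest of its group for Cx3cr1 (401), the fractalkine receptor, and for P2rx7 (73.8), and the summed microglia markers lay between 1888 and 3601 in Dox+LPS, 2734 and 2879 in Dox, 2794 and 3528 in LPS and 2626 and 3309 in Untreated mice. The part of that mouse's microglia level in the result was not tested beyond leaving it out, which gave a family median of -0.09, and without LPS mouse 3 and Untreated mouse 3 it was -0.11. Among females alone the median was 0.17 and among males alone -0.43.

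The other genes that LPS lowered most were Slc2a5, a fructose transporter of microglia, Pllp, a myelin protein, and the activity-dependent gene Arc. Their differences were -0.19 ± 0.25, -0.11 ± 0.21 and 0.25 ± 0.55 (SE). With each mouse left out in turn they ran from -0.32 to -0.04 for Slc2a5, from -0.21 to 0.0083 for Pllp and from 0.07 to 0.80 for Arc. Arc ranged between 262 and 910 in Dox+LPS, 946 and 1939 in Dox, 274 and 1198 in LPS, and 741 and 2730 in Untreated mice, so its response could not be compared closely. Bdnf, a neurotrophin, had a response of -1.57 with prior dox and -1.32 without it, a difference of -0.25 ± 0.21 (SE), and -0.07 without LPS mouse 2.

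Neuronal families had small negative medians with many members on the same side. The neuronal cytoskeleton, identity and vesicle family had a positive difference in 3 of 22 genes and a median of -0.11, with Rbfox3 and Stmn1, a microtubule regulator, at an unadjusted p under 0.05. Over 5 other scalings the median stayed between -0.12 and -0.03, and 8 of 22 genes were positive with housekeeping scaling. Without Dox mouse 2 it was -0.06, and without LPS mouse 3 and Untreated mouse 3 it was -0.07. Glutamate receptors and postsynaptic scaffolds had 2 of 17 positive and a median of -0.07, with Ppp3ca, Ppp3cb and Grm2 at an unadjusted p under 0.05, and the median was -0.01 with housekeeping scaling and 8 genes positive, and -0.04 without Dox mouse 2. Among females alone these 2 family medians were 0.01 and 0.07. The summed neuron markers lay between 27375 and 30940 in Dox+LPS, 32423 and 38018 in Dox, 29702 and 32939 in LPS and 33528 and 38634 in Untreated mice, so they were lower after LPS in both conditions. Their part in the differences of single neuronal genes was not tested.

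Several broad families had medians whose sign depended on the scaling. Chromatin modifiers and remodellers (22 of 56 positive, median -0.02), DNA repair genes (19 of 35 positive, median 0.01), myelin membrane genes (6 of 15 positive, median -0.04), core autophagy genes (4 of 17 positive, median -0.05) and astrocyte identity genes (6 of 12 positive, median 0.00) all changed the sign of their median under at least one of the 5 other scalings. With each mouse left out in turn the medians ran from -0.03 to 0.01 for chromatin, from -0.02 to 0.05 for DNA repair, from -0.06 to -0.0038 for myelin membrane and from -0.03 to 0.03 for astrocyte identity genes. Pcna, the replication clamp, had the smallest p of the DNA repair genes (difference -0.24 ± 0.08 SE, adjusted p = 0.364 by edgeR's quasi-likelihood test). Rb1cc1, an autophagy initiator, had that of the core autophagy genes (difference -0.14 ± 0.06 SE). Bax, a pore-forming member of the BCL2 family, had that of the p53 targets and stress-arrest genes (difference -0.27 ± 0.11 SE).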

How the data were processed

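RNA of frozen cortex from 23 mice was hybridised to the nCounter Mouse Neuroinflammation panel, which counts barcoded probes without amplification. The authors deposited whole-number, unnormalised estimated counts for 784 probes (757 endogenous, 13 housekeeping, 6 positive and 8 negative control), and per the submitters' processing notes they used edgeR 3.38.4. A column of no sample (1) was not used. Each mouse's background limit lay 2 SD above the mean of its negative control probes.

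All 770 genes were fitted with edgeR 4.0.16 (R 4.3.3; quasi-likelihood test, upper quartile scaling as in the study's methods, 1 mean per group, all 23 mice), with Benjamini-Hochberg adjustment over 770 genes. A gene was called at an adjusted p under 0.05 with a difference above 0.5. Standard errors came from the coefficient and the F statistic, and 95% intervals from the t distribution. "Normalised count" is the count after upper quartile scaling. The fit was also run on simulated counts with independent genes and no outlying mice. That run cannot show how mice such as LPS mouse 3 and Untreated mouse 3 affect the fit. Alternatives used limma 3.58.1, DESeq2 1.42.0, 5 other scalings, background subtraction, filters, RUVg factors (1 and 2), sex, lane, each sex alone and leaving out mice.

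Named genes were, among those above background, the 10 with the smallest unadjusted p in each direction, the 5 highest and 5 lowest mean responses, and the member with the smallest p of each family; other genes given were picked after their values were seen, Casp4, Cxcl9 and Cxcl10 among them. Some genes are not reported here. The members and gene lists were chosen with earlier results of these data known. Mice are numbered in the order of their records within a group. Of the panel, 149 genes have no size, 48 of them above background in no mouse. Promoter sequences are from RefSeq (GRCm38.p6).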

Additional observations from a re-analysis of the deposited data

Results flagged for a closer look

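Within each group, the highest and the lowest mouse were compared with the spread of the others by Dixon's test for the 53 named genes and the per-mouse response over raised and lowered genes. This gave 26 outlying values in 220 groups (11.8%), where chance alone gives about 1 in 20.

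Untreated mouse 3 gave the highest Untreated value for Lcn2 (733), Tnfrsf1a (187), Ifitm3 (705), Irf7 (68.0) and C4a (307), and its median log2 ratio over the raised genes was 0.33. LPS mouse 3 gave the lowest LPS value for Lcn2 (5449) and C4a (456).

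Dox+LPS mouse 1 was highest for Myrf (1047), Tm4sf1 (571), Il1r1 (342) and Dab2 (105), and lowest for Grm2 (594), Cx3cr1 (401), C4a (404) and P2rx7 (73.8). Dox+LPS mouse 4 was highest for Mef2c (11013).

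The remaining values were single ones. Among Dox mice, Bnip3 had a lowest value of 2977 and Slc2a5 a highest of 116. Among LPS mice, Arc had a highest value of 1198 and Dab2 a lowest of 52.4. Among Untreated mice, Tpd52 (2477), Pla2g5 (65.0) and Cyp7b1 (275) had 1 high mouse each, and Pld1 (59.0) and Cx3cr1 (732) had 1 low mouse each.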

How the results depend on the processing

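The count of called genes was 0 in each of the 44 alternative settings. With no minimum difference, 1 gene (Tpd52) had an adjusted p under 0.05 without Untreated mouse 4. At an adjusted p under 0.1 that fit gave 12 genes, DESeq2 5, and the likelihood ratio test, the fit without Untreated mouse 8 and the fit without 3 Untreated mice of another number range 1 each. The 69 genes at an unadjusted p under 0.05 became 39 with positive control scaling, 43 with genes above background in every mouse only, 42 with males alone (1 Dox mouse, assumed to vary like the others) and 43 without LPS mouse 3 and Untreated mouse 3, and lay between 48 and 85 when each mouse was left out in turn. The share of these genes with a positive difference was 39.1% in the fit reported and depended on the scaling: 54.8% (TMM), 60.3% (RLE), 67.7% (library size), 81.2% (housekeeping) and 43.6% (positive control). The cause was not tested.

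Of 2329 alternative values of the 53 named genes, 22 had the other sign and 2307 did not. Among females alone the sign changed for Lcn2 (-0.49), Gpr34 (0.046), P2ry12 (0.12), Slc2a5 (0.29), Pllp (0.35), Il1r1 (-0.047), Cx3cr1 (0.18), Csf1 (-0.043), P2rx7 (0.27), Plekhb1 (0.032) and Bdnf (0.29), and among males alone for Axl (0.13). P2rx7 also changed with housekeeping (0.029) and library size scaling (0.0018), with 1 (0.027) and 2 RUVg factors (0.019), and with 3 of the mice left out singly (range over all mice left out in turn -0.094 to 0.053). Others were Pllp without LPS mouse 2 (0.0083; range over all mice left out in turn -0.21 to 0.0083), Arc without those 3 Untreated mice (-0.17), and Sod2 with housekeeping scaling (0.0046). No paired analysis was possible because the labels carry mouse numbers and no shared replicate number. The number of mice, 4 in the smallest group, limits the precision of every difference.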
